A study of Oryza sativa with 6 samples.

Results

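Catalases and superoxide dismutases (SODs) of rice were compared between the end of the night and the end of the day. The family was taken as 8 genes named by their MSU locus identifiers, out of 55801 loci in the count files, and consists of 3 catalases and 5 SODs. All 8 were found in the files and all 8 were deep enough to be tested, with 175 to 244810 counts per library. The plants were rice (Oryza sativa) cv. Nipponbare, for which the labels name no mutation or transgene. They grew at 28 °C on Chu's medium in days of 12 h light and nights of 12 h. The AM group (n = 3) was harvested 30 min before lights on and the PM group (n = 3) 30 min before lights off. Material was whole frozen seedlings according to the extraction text, although the organ label reads panicle; plant age is not given. The labels do not say whether replicates came from separate plants, so the p-values reflect spread among these libraries, some or all of which may be technical.

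SODs convert superoxide into hydrogen peroxide and oxygen, and catalases split hydrogen peroxide into water and oxygen. Plant SODs are grouped by their metal: Cu/Zn enzymes work in the cytosol and in plastids, Mn enzymes in mitochondria and Fe enzymes in plastids. Catalases sit in peroxisomes, where they remove the hydrogen peroxide that glycolate oxidase makes during photorespiration in illuminated leaves.

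Depth was 13 M to 66.7 M gene counts per library, and 20548 loci were tested. Of these, 55.9% differed between the groups when tested with edgeR's quasi-likelihood method (Benjamini-Hochberg adjusted p under 0.05), with 28% higher and 28% lower in PM. Levels are CPM, the counts of a locus relative to the total of its library, scaled with TMM, a method that centres the libraries on the bulk of the loci. Scaled by library totals alone, the median locus stood 0.84 log2 units above zero in PM, against −0.01 after TMM, and 54.5% of loci were higher and 13.5% lower. Changes below are therefore relative to the bulk of the loci, and the value by library totals is given where it alters a call or a direction. The 10 floral markers summed to 4.43 to 9.18 CPM per library, with 2 of them, MADS8 and MADS13, at 0 counts in all 6. Root markers (7 genes) summed to 42.4 to 56.7 CPM in AM and 18.6 to 26 CPM in PM. Green leaf markers (5 genes, among them the Rubisco activase gene RCA) summed to 57917 to 87990 CPM in AM and 2392 to 3117 CPM in PM. In such bulk samples, fewer cells of a type and less RNA per cell cannot be told apart.

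Of the 8 genes, 4 were lower in PM, 2 were higher and 2 did not pass the test. The catalases CATA and CATC, the plastid Cu/Zn-SOD and 1 of the cytosolic Cu/Zn-SODs fell by 3.19-fold to 6.35-fold. Mn-SOD rose 1.9-fold and Fe-SOD 4.12-fold. The ranges of the groups were separate at 7 of the 8, against 64.1% of all tested loci. The median log2 change of the 8 was −0.96 and their median size of change 1.86, beside −0.01 and 0.85 over all tested loci. The called share of the family, 6 of 8, stands beside the 55.9% of all loci that were called.

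**Figure D1:**
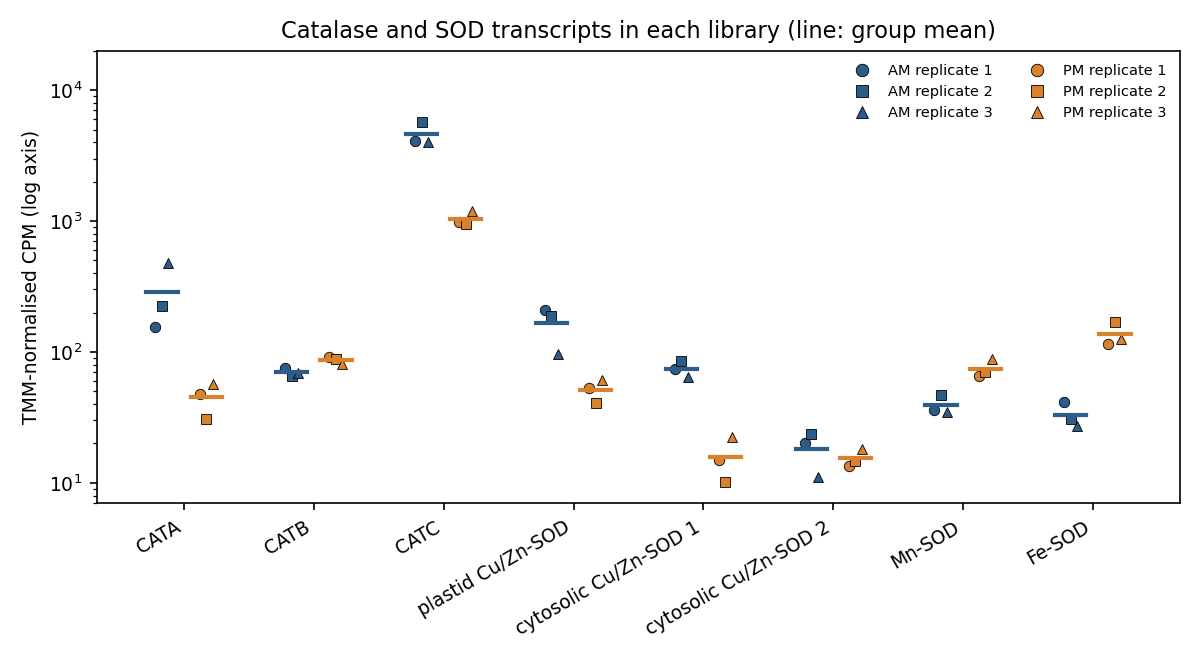
TMM-normalised CPM (log axis) of the 8 genes in each library, blue for AM and orange for PM, with a marker shape per replicate number and a line at the group mean. CATC, CATA and the Cu/Zn-SODs other than cytosolic Cu/Zn-SOD 2 lie higher in AM, Mn-SOD and Fe-SOD lie higher in PM, and CATA in AM replicate 3 stands at 479 CPM against 156 and 226 in the other AM libraries.

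CATC (LOC_Os03g03910) encodes the leaf catalase whose loss in rice leads to hydrogen peroxide build-up in leaves. It stood at 4068, 5662 and 4034 CPM in AM replicates 1, 2 and 3 and at 988, 949.8 and 1189 CPM in PM replicates 1, 2 and 3. Every AM library was thus above the highest PM library, and the PM libraries lay close together. The mean fell from 4588 ± 931 to 1042 ± 128 CPM (SD, n = 3), a log2 change of −2.14 (SE 0.24, edgeR quasi-likelihood adjusted p = 0.000114).

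CATA (LOC_Os02g02400) is another peroxisomal catalase. Its AM values of 156, 226 and 479 CPM were the most uneven of the family, with replicate 3 far above the other AM libraries. In PM it was at 48, 30.5 and 56.8 CPM, below all AM values. The log2 change was −2.67 (SE 0.43, edgeR adjusted p = 0.000811), or −2.08 (adjusted p = 0.000508) without AM replicate 3.

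CATB (LOC_Os06g51150) is the catalase best known from rice roots. It was at 75.3, 65.8 and 69.3 CPM in AM and 91.2, 88.6 and 80.6 CPM in PM. The groups did not overlap, yet the log2 change of 0.31 (SE 0.14) did not pass the test (edgeR adjusted p = 0.0985). By library totals alone it was called higher, at 1.15 (adjusted p = 0.000551). The replicates of CATB were tight, with a coefficient of variation of 6.89% in AM and 6.4% in PM, against 59.2% and 29.6% for CATA.

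A ratio of 2 genes within 1 library does not depend on how libraries are scaled, so the catalases were also compared in this way. The log2 ratio of CATB to CATC was −5.75, −6.43 and −5.86 in the AM libraries and −3.44, −3.42 and −3.88 in the PM libraries. It was higher in PM by 2.44, a 5.41-fold change of the ratio, with all 3 PM libraries above all 3 AM libraries. The ratio of CATA to CATB moved the other way by 7.28-fold, from a mean log2 of 1.88 ± 0.87 to −0.99 ± 0.52 (SD, n = 3). CATA over CATC overlapped between the groups, with a mean change of −0.43 that turned to 0.11 without AM replicate 3 (exact two-sided permutation p = 0.8 and 0.6). Over the 13 pairs of genes compared (3 of catalases, 10 of SODs), 11 had no overlap between the groups. The pairs share genes and are not separate observations. No such share was computed for other gene pairs, and 64.1% of single loci had no overlap. Each of the 11 pairs reached an exact two-sided permutation p = 0.1, the smallest that 3 libraries against 3 allow, or 0.118 after Benjamini-Hochberg adjustment.

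CATB took 1.46% ± 0.33 of the catalase counts in AM and 7.49% ± 1.23 in PM (SD, n = 3). CATC took 92.6% ± 3.95 and 88.7% ± 1 (SD, n = 3), with overlap between the groups. These are shares of counts, not of molecules, because gene lengths were not used here. The counts of the 3 catalases together made up 0.335%, 0.386% and 0.374% of gene counts in the AM libraries. In the PM libraries they made up 0.155%, 0.143% and 0.174%, all below AM. On the TMM scale the sum was 4945 ± 885 CPM in AM and 1174 ± 135 CPM in PM (SD, n = 3), also with no overlap.

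Among the SODs, 2 of the 3 Cu/Zn genes were lower in PM, Mn-SOD and Fe-SOD were higher, and cytosolic Cu/Zn-SOD 2 was not called. The plastid Cu/Zn-SOD (LOC_Os08g44770), which acts beside the photosynthetic membranes, was at 211, 188 and 96.2 CPM in AM and 53.1, 40.4 and 61.1 CPM in PM. AM replicate 3 lay well below the other AM libraries but above every PM library. The log2 change was −1.68 (SE 0.30, edgeR adjusted p = 0.00155), and −1.95 (adjusted p = 0.000129) without AM replicate 3.

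Cytosolic Cu/Zn-SOD 1 (LOC_Os03g22810) was at 73.6, 84.6 and 64.2 CPM in AM and 14.9, 10.1 and 22.5 CPM in PM. Here the AM libraries were close and the PM libraries spread more, with PM replicate 2 the lowest. The log2 change was −2.22 (SE 0.28, edgeR adjusted p = 0.000243).

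Its cytosolic paralogue Cu/Zn-SOD 2 (LOC_Os07g46990) did not pass the test. AM values were 20.02, 23.4 and 11.1 CPM and PM values 13.4, 14.6 and 18.1 CPM, so the groups overlapped, with AM replicate 3 the lowest of the 6. The log2 change was −0.24 (SE 0.28, edgeR adjusted p = 0.488), and −0.50 (adjusted p = 0.0529) without AM replicate 3. By library totals alone its sign turned to 0.64 (adjusted p = 0.0435), so no direction is given for it. Within libraries the log2 ratio of cytosolic Cu/Zn-SOD 1 to Cu/Zn-SOD 2 was 1.88, 1.85 and 2.53 in AM. In PM it was 0.15, −0.53 and 0.31, a mean change of −2.11 with no overlap. In these libraries the change of this ratio exceeded its spread within either group (SD 0.38 in AM and 0.45 in PM), whatever the scaling. The exact two-sided permutation p was 0.1 (0.118 adjusted), the smallest that 3 libraries against 3 allow.

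Mn-SOD (LOC_Os05g25850), the mitochondrial enzyme, was at 35.9, 47.2 and 35 CPM in AM and 65, 70.01 and 88.9 CPM in PM. All PM values exceeded all AM values. Its log2 change was 0.92 (SE 0.19, edgeR adjusted p = 0.00327), or 1.78 by library totals alone.

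Fe-SOD (LOC_Os06g05110), of the plastid type, had the largest rise of the 8. It was at 41.5, 30.5 and 27.3 CPM in AM and 114, 169 and 125 CPM in PM. The lowest PM library stood far above the highest AM library. The log2 change was 2.04 (SE 0.23, edgeR adjusted p = 0.000107).

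**Figure D2:**
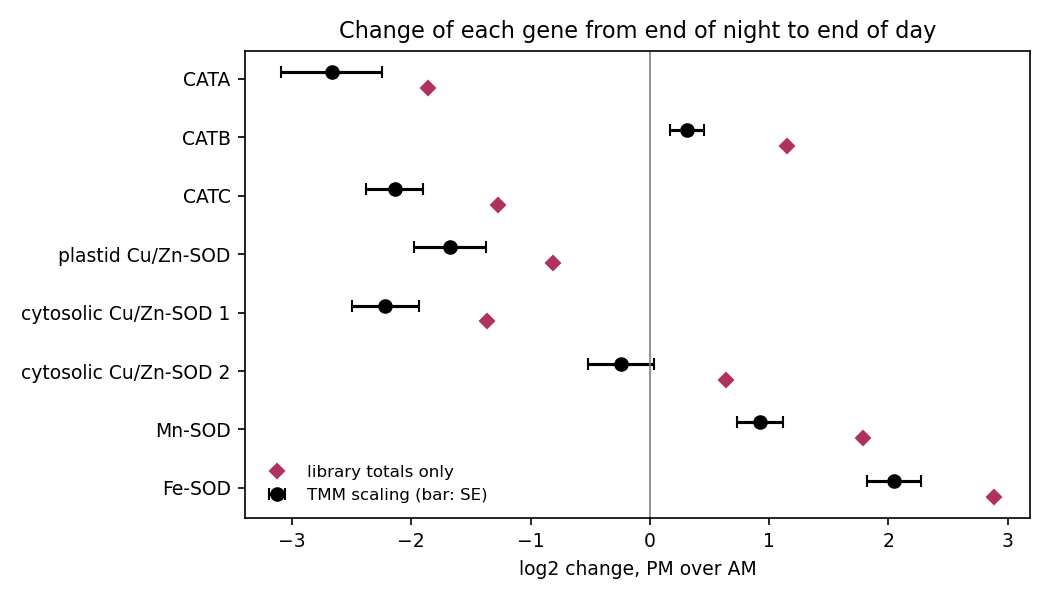
Log2 change of PM over AM for the 8 genes, as black points with bars of 1 SE after TMM scaling and as red diamonds by library totals alone. Each gene lies further to the right by library totals, and only cytosolic Cu/Zn-SOD 2 changes sign, from −0.24 to 0.64.

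The mix of counts over the 5 SOD genes also differed between the groups. LOC_Os03g11960 and LOC_Os06g02500, listed below as SOD relatives, were left out of these sums. LOC_Os03g11960 alone averaged 194 CPM in AM and 166 CPM in PM. Plastid Cu/Zn-SOD took 55.2%, 50.3% and 41.2% of the SOD counts in AM and 20.4%, 13.3% and 19.3% in PM. Fe-SOD took 10.9%, 8.16% and 11.7% in AM and 43.8%, 55.6% and 39.7% in PM. Neither share overlapped between the groups, and every AM library had more counts on the plastid Cu/Zn-SOD than on Fe-SOD while every PM library had fewer. The Mn-SOD share went from 12.3% ± 2.79 to 25.4% ± 2.58 and that of cytosolic Cu/Zn-SOD 1 from 23.1% ± 4.11 to 5.39% ± 1.93 (SD, n = 3), likewise without overlap. Cytosolic Cu/Zn-SOD 2 held 5.43% ± 0.78 and 5.23% ± 0.48 (SD, n = 3), with overlap. Over the 10 shares and totals compared, 7 had no overlap, each with an exact two-sided permutation p = 0.1, or 0.143 after adjustment. Shares of a family have a fixed sum, so they are not independent. The same was not computed for other gene families, and 64.1% of single loci had no overlap.

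Expressed as log2 ratios, plastid Cu/Zn-SOD over Fe-SOD went from 2.34, 2.62 and 1.82 in AM to −1.10, −2.06 and −1.04 in PM. This is a 12.7-fold change of the ratio for this pair of genes. Cytosolic Cu/Zn-SOD 1 over Fe-SOD changed by 20.2-fold, the largest change of the 13 ratios. Mn-SOD over Fe-SOD changed by 2.17-fold, from 0.26 ± 0.43 to −0.86 ± 0.39 (SD, n = 3). Plastid Cu/Zn-SOD over cytosolic Cu/Zn-SOD 1 overlapped between the groups (change of 0.67, exact two-sided permutation p = 0.2).

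The total of the 5 SOD genes had no stable direction. LOC_Os03g11960 and LOC_Os06g02500 are not part of it. Counts of the 5 were 0.0297%, 0.0242% and 0.0191% of gene counts in AM and 0.0359%, 0.0407% and 0.0415% in PM, higher in all PM libraries. On the TMM scale the sum was 330 ± 83.2 CPM in AM and 294 ± 29.2 CPM in PM (SD, n = 3), lower on average and overlapping (exact two-sided permutation p = 0.6).

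**Figure D3:**
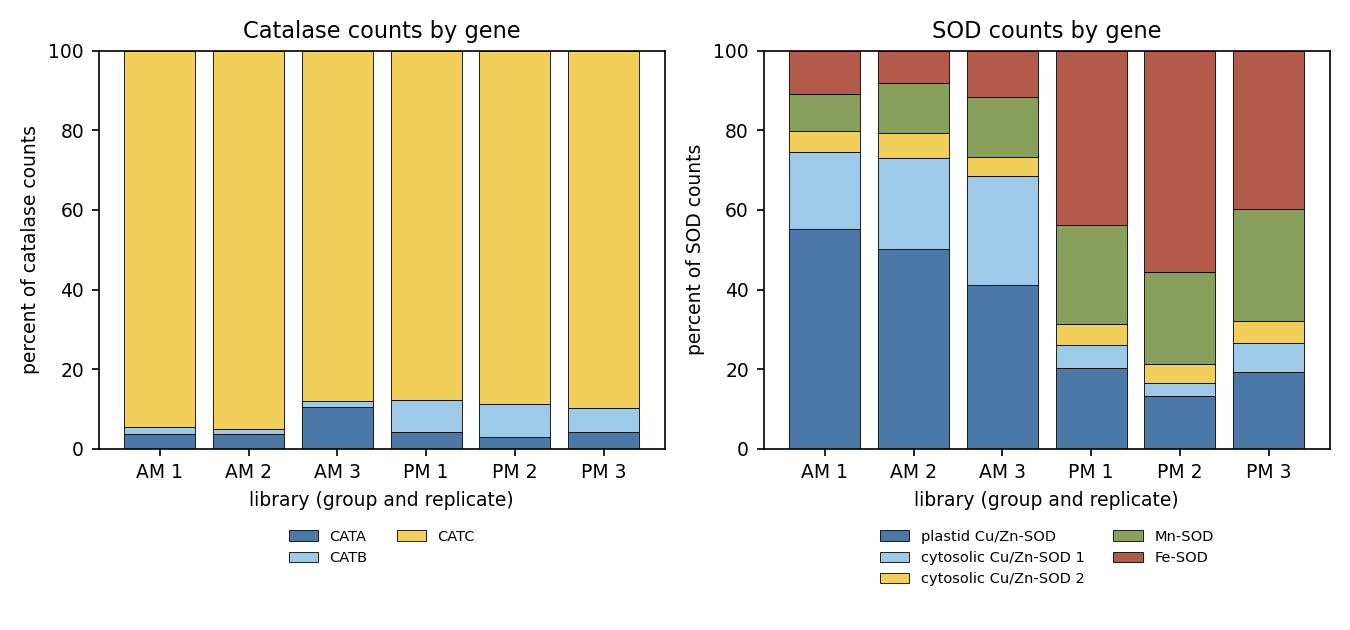
Percent of the summed counts of the 3 catalases (left) and 5 SODs (right) that fell on each gene, 1 stacked bar per library. CATC fills 87.6% to 95.1% of the catalase counts in every library, while among SODs the plastid Cu/Zn-SOD share is 41.2% to 55.2% in AM and 13.3% to 20.4% in PM.

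Of 3 further loci listed as relatives of the SODs, 1 was lower, 1 higher and 1 not called, where 28% of all loci were called in each direction. CCS (LOC_Os04g48410) is the chaperone that loads copper into Cu/Zn-SODs. It was at 72.7, 64.4 and 29.6 CPM in AM and 19.5, 20.4 and 24.6 CPM in PM, so AM replicate 3 lay close to PM. In PM the gene was at log2 −1.37 (SE 0.31, edgeR adjusted p = 0.00533), and −0.50 with no call by library totals alone (adjusted p = 0.138). LOC_Os06g02500, placed beside Fe-SOD by its identifier alone, was at 27.9, 22.4 and 25.3 CPM in AM and 59.6, 90.4 and 69.1 CPM in PM. The log2 change of this locus was 1.54 (SE 0.19, edgeR adjusted p = 0.000227). LOC_Os03g11960, placed beside the Cu/Zn-SODs by its identifier alone, had values of 226, 235 and 121 CPM in AM and 146, 149.7 and 201 CPM in PM. These overlapped (log2 −0.23, SE 0.27, edgeR adjusted p = 0.49), and by library totals alone the sign turned to 0.64 (adjusted p = 0.039).

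**Figure D4:**
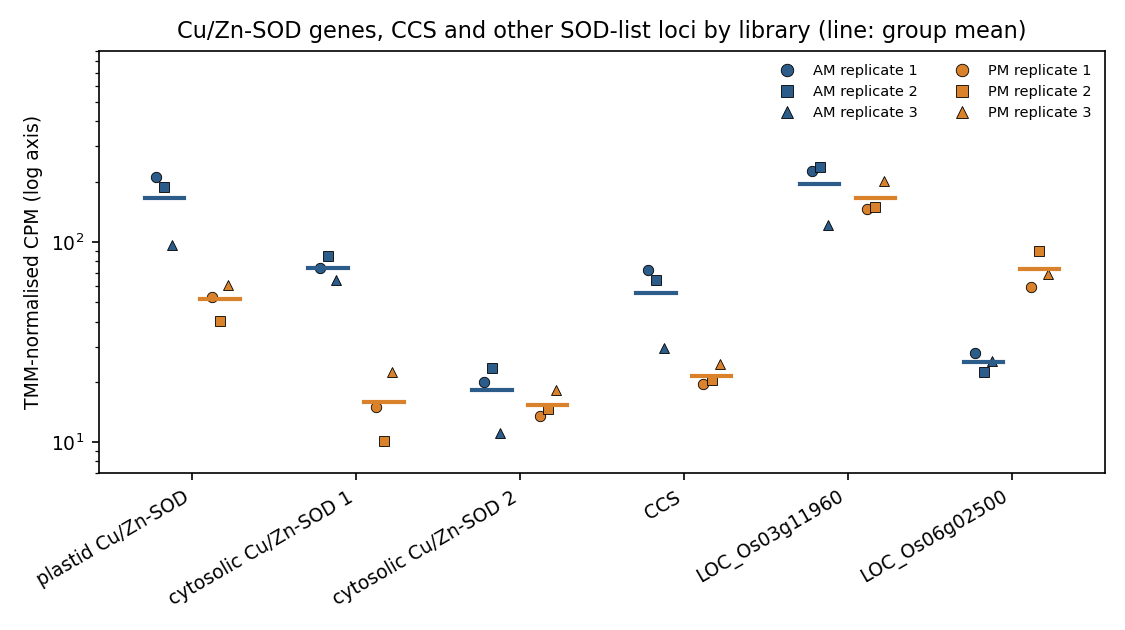
TMM-normalised CPM (log axis) of the 3 Cu/Zn-SOD genes and of the 3 loci listed as SOD relatives, blue for AM and orange for PM, with a marker shape per replicate number and a line at the group mean. AM replicate 3 is the lowest AM library for all but LOC_Os06g02500, with 29.6 CPM for CCS and 121 CPM for LOC_Os03g11960.

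Likeness of profile was measured as the root-mean-square difference of log2 CPM over the 6 libraries, after centring each gene on its own mean, against 44 tested loci of the other antioxidant lists. Plastid Cu/Zn-SOD was most like CCS, with a difference of 0.23 where the median candidate stood at 0.78. Fe-SOD was most like LOC_Os06g02500 (0.30, median 1.28). Mn-SOD was most like PrxIIF (0.20, median 0.85), a peroxiredoxin of mitochondria. The second candidates were close behind for these genes. They were the ascorbate peroxidase gene APX8 for plastid Cu/Zn-SOD (0.27), LOC_Os08g35210 for Fe-SOD (0.31) and the ascorbate peroxidase gene APX6 for Mn-SOD (0.24). Cytosolic Cu/Zn-SOD 2 was most like LOC_Os03g11960, at 0.06, the smallest difference found for any of the 8 (median 0.65). CATB was most like the plastid 2-Cys peroxiredoxin gene BAS1 (0.14, median 0.67). That gene did not pass the test (LOC_Os02g33450, log2 0.36, SE 0.16, edgeR adjusted p = 0.0846) and was called higher with DESeq2 (adjusted p = 0.0395) and by library totals alone (1.21). Among these candidates, CATC and cytosolic Cu/Zn-SOD 1 were both most like LOC_Os02g44500, at 0.22 and 0.33 (medians 0.91 and 1.03). The peroxiredoxin gene PrxIIC was second for both, at 0.22 and 0.39. CATC and cytosolic Cu/Zn-SOD 1 stood 0.25 from each other, so the latter lay nearer to CATC than to any candidate. The 8 genes themselves were not candidates. Of the 8, CATA stood furthest from its nearest locus, LOC_Os09g26660, at 0.49 (median 1.25). These values describe 6 libraries that fall into 2 groups.

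Other genes that handle hydrogen peroxide moved in both directions. The ascorbate-glutathione cycle removes hydrogen peroxide with ascorbate and regenerates the ascorbate through glutathione. Of its 18 listed genes, 9 were lower in PM, 3 higher and 6 not called, with a median log2 change of −0.88, against 28% lower and 28% higher over all loci. Scaled by totals, 5 fell and 4 rose (median −0.02), beside 13.5% and 54.5% of all loci. The ascorbate peroxidase genes APX5 (LOC_Os12g07830) and APX6 (LOC_Os12g07820) rose by log2 1.67 (SE 0.23) and 0.81 (SE 0.16). Their means were 2.54 and 12.8 CPM in AM and 8.15 and 22.4 CPM in PM. APX1, APX2, APX7 and APX8 were called lower, and APX3 and APX4 were not called. Mean APX8 went from 1849 CPM in AM to 651 CPM in PM, and APX2 from 574 to 72.7 CPM. By library totals alone APX1 and APX7 had no call (log2 0.09 and −0.40), and APX4 was called higher (0.59). The smallest p values among the falls were those of LOC_Os09g39380, at −1.82 (SE 0.19), and LOC_Os05g02530, at −3.14 (SE 0.34), both placed in the list by identifier alone.

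Peroxiredoxins and glutathione peroxidases reduce peroxides with thiols. Of 11 tested, 6 were lower, 1 was higher and 4 were not called, with a median of −1.02, beside 28% of all loci in each direction. Scaled by totals, 4 fell and 4 rose (median −0.15), beside 13.5% and 54.5% of all loci. PrxIIF (LOC_Os01g16152) rose by log2 0.73 (SE 0.14), and 2 genes were higher with DESeq2 or without AM replicate 3. LOC_Os06g08670 and LOC_Os02g44500, placed in this list by identifier alone, were at −2.26 (SE 0.17) and −1.90 (SE 0.17).

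The enzymes that produce superoxide or hydrogen peroxide were 4 glycolate oxidases and 9 respiratory burst oxidases (RBOH), the NADPH oxidases of the plasma membrane. Of 12 tested, 4 were higher, 3 lower and 5 not called, with a median of −0.05. The 7 called stand near the 55.9% of all loci that were called. Scaled by totals, 7 rose and 1 fell (median 0.79), beside 54.5% and 13.5% of all loci. RBOHB (LOC_Os01g25820) rose from 15.4 to 352 CPM on average, which is 4.51 in log2 (SE 0.44; edgeR, adjusted p = 5.16e-05), or 5.20 without AM replicate 3. LOC_Os08g35210, placed in this list by identifier alone as well, rose by 2.17 (SE 0.16). LOC_Os01g61880 and LOC_Os09g26660, listed in the same way, were at −1.47 (SE 0.24) and −2.35 (SE 0.53). The first had no call by library totals alone (−0.65, adjusted p = 0.0579), and the second moved to −1.47 without AM replicate 3. GLO1 (LOC_Os03g57220), a glycolate oxidase that supplies catalase with its substrate, was at log2 −0.20 (SE 0.23) and GLO5 (LOC_Os07g05820) at 0.26 (SE 0.21), neither past the threshold after TMM scaling. Both were called higher by library totals alone, at 0.66 and 1.11. Among the other listed glycolate oxidases, GLO4 (LOC_Os07g42440) was called higher after TMM scaling as well (edgeR adjusted p = 0.00276). Its mean went from 5.3 CPM in AM to 10.7 CPM in PM. GLO3 (LOC_Os04g53210) was not called (log2 −0.61, SE 0.33). These glycolate oxidases are named beside CATC because of their shared peroxisomal pathway, and were chosen after their values were seen.

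**Figure D5:**
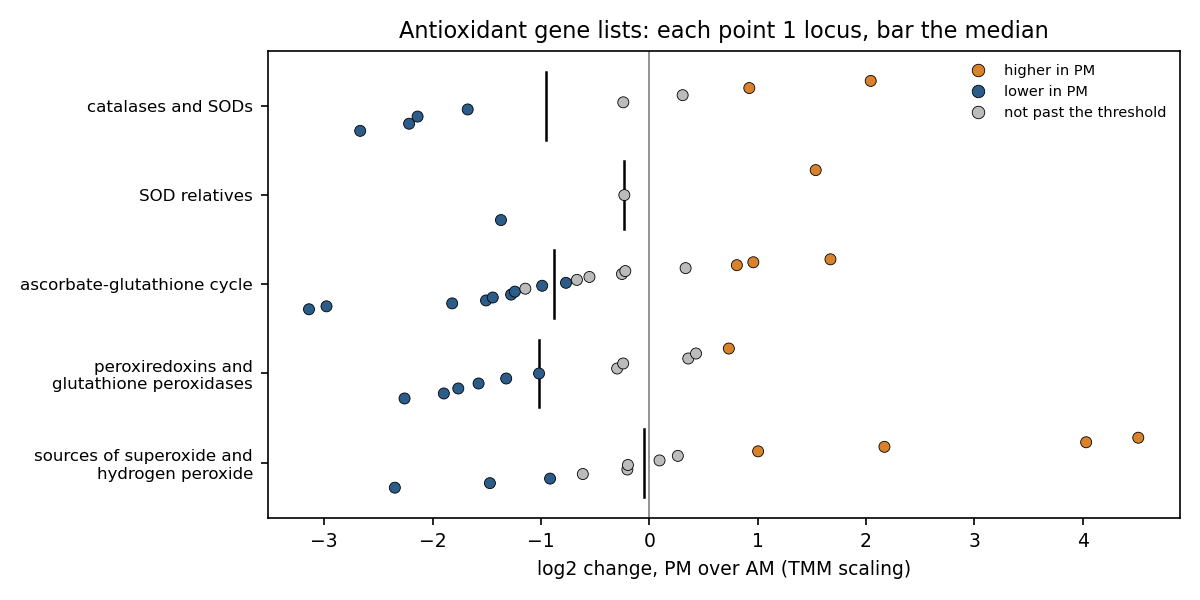
Log2 change of PM over AM after TMM scaling for each tested locus of the 8-gene family and of the other antioxidant lists, orange for higher in PM, blue for lower and grey for not past the threshold, with a bar at the list median. Medians run from −1.02 for peroxiredoxins and glutathione peroxidases to −0.05 for the sources of superoxide and hydrogen peroxide.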

How the data were processed

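The 6 deposited files hold raw counts per locus, for which the authors used Trimmomatic 0.33, STAR and HTSeq 0.6.1 according to the submitters' processing notes. Build, annotation and counting strand were not given in the sources used here; reads of overlapping or antisense genes therefore cannot be separated, and no coordinates are printed. Libraries came from 2 µg of total RNA with a directional kit, per the labels' protocols. The 5 summary lines of each file stayed out of all totals. Reads aligned to more than 1 place were 39.1% to 56.1% of records, reads on no feature 2.92% to 6.26% and ambiguous ones 0.112% to 0.171%; none of these are in the gene counts, so similar copies can lose reads.

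PM was compared with AM on the whole table by the edgeR 4.0.16 quasi-likelihood test (R 4.3.3) with TMM scaling and filterByExpr (minimum count 10), and p-values were adjusted over 20548 loci. Ratios (0.5 counts added) and shares were tested by exact permutation in SciPy 1.17.1. All replicate pairs differed beyond sampling noise (chi-square over its degrees of freedom, 18.7 to 133). The labels give no batch. Same-numbered AM and PM libraries did not deviate together, so the numbers were not used as pairs.

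The 8 genes and all lists were chosen with earlier results of these data known. Named genes are the 8, up to 2 called loci per direction with the smallest p from each other list, and the closest profile to each of the 8. Other APX genes, PrxIIC and the glycolate oxidases were named outside this rule, with their values known. Names were matched to the RefSeq gene table of assembly ASM3414082v1 by symbol, chromosome and gene order for 48 of 76 entries, 6 of them in the family. CATC and Fe-SOD rest on the locus identifiers alone. Levels per gene length, promoters and proteins were not analysed here. Alternatives were RLE, upper-quartile and library-total scaling, no filter or a minimum mean of 5 CPM, a replicate block, a threshold of 0.01, DESeq2 1.42.0, limma-voom (limma 3.58.1), leaving out each library and no added count; the SOD and catalase sums on the TMM scale were added after seeing the data.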

Additional observations from a re-analysis of the deposited data

How the results depend on the processing

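Across 15 alternatives for each of the 8 genes, 118 of the 120 log2 changes kept their direction and their side of the threshold. The exceptions came with library totals alone: CATB was called higher (1.15) and cytosolic Cu/Zn-SOD 2 turned to 0.64, as did LOC_Os03g11960 (0.64). That scaling gave 4 higher genes in the family, 17 higher and 10 lower in the other lists (9 and 19 with TMM), and 11201 higher and 2764 lower over all loci (5748 and 5745 with TMM). With the replicate block, which pairs libraries by a number that the data did not bear out (correlations of −0.08, −0.35 and 0.06), the family again had 2 higher and 4 lower genes, and all loci had 5077 higher and 5060 lower. With 1 library left out, CATA over CATC ranged from −0.71 to 0.11, the CATA share from −3.33 to 0.0854 percentage points and the cytosolic Cu/Zn-SOD 2 share from −0.53 to 0.23 percentage points. The total of the 5 SODs, higher in PM by 0.015 percentage points of gene counts, was at −0.0036 with TMM library sizes. The cause of these shifts was not tested beyond the scaling itself. With 3 libraries per group, exact permutation cannot go below p = 0.1.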

Other observations

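Within the AM group, some of the family and some of the SOD relatives varied more between libraries than most loci did. AM replicate 3 stood 1.35 log2 units above the mean of AM replicates 1 and 2 for CATA, and 3.23% of tested loci had a larger deviation in either direction. For CCS it stood at −1.20 (4.54% of loci larger), for plastid Cu/Zn-SOD at −1.04 (6.68%), for cytosolic Cu/Zn-SOD 2 at −0.93 (8.93%) and for LOC_Os03g11960 at −0.93 (9.07%). CATC and cytosolic Cu/Zn-SOD 1 stood at −0.25 and −0.30, where 56.5% and 50.5% of loci deviated more. Mn-SOD, Fe-SOD and CATB stood at −0.23, −0.38 and −0.02, where 59.4%, 40.9% and 95.6% of loci deviated more. LOC_Os06g02500 stood at 0.02 (96.9%). Green leaf markers summed to 57917 CPM in AM replicate 3, against 58922 and 87990 CPM in AM replicates 1 and 2; their part in these deviations was not tested.

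Counts of LOC_Os03g11960 stood in a nearly fixed ratio to those of cytosolic Cu/Zn-SOD 2. The ratio was 11.3, 10.03 and 10.9 in the AM libraries and 10.9, 10.3 and 11.1 in the PM libraries, while the level of either locus varied by more than the ratio did. This pair was picked for its likeness, so the ratio is a description.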
